A study of Mus musculus with 8 samples.

Results

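Metallothioneins and glutathione-linked enzymes were followed across uterine epithelium and stroma of mice with and without Ezh2. The 8 genes were taken by exact symbol. They are the metallothioneins Mt1, Mt2 and Mt3, the glutathione transferases Gsto1 and Gstm1, and the glutathione peroxidases Gpx1, Gpx3 and Gpx4. All 8 were among the 5828 gene IDs listed in at least 1 of 4 deposited comparisons, and 7 had values in every tissue pool. They were chosen by their deposited averages in these pools. Their levels and contrasts are therefore descriptions, no test was run on them, and the adjusted p-values given below are the authors' own.

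The study used Visium, which captures the messenger RNA of a tissue section on an array of barcoded spots, each wide enough for more than 1 cell. The 4 animals called Ezh2cKO (KO) had the genotype EZ fl/fl; Prcre/+, that is, floxed Ezh2 alleles and a Cre recombinase expressed from the progesterone receptor locus. The 4 animals called WT had the genotype EZ fl/fl, so they too carried the floxed alleles, without Cre. Every female was of a mixed C57BL/6 and 129SvEv strain, had been ovariectomized at postnatal day 71 ± 4 and gave its uterus at day 112 ± 11. One female of each genotype came from each of 4 litters. Cre from this locus acts in cells that have expressed the receptor, which in the uterus include epithelium, stroma and muscle. The authors pooled the spots that they named epithelium or stroma over the animals of a genotype, which leaves 4 pools and no spread between animals. The intervals below cover counting error alone, and whether the authors' p-values rest on animals or on spots is unknown.

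Metallothioneins are small cysteine-rich proteins that bind zinc and copper, and Mt1 and Mt2 are induced in most tissues by zinc, through the factor MTF1, and by glucocorticoids. Mt3 is best known from the brain. Glutathione is the main small thiol of the cell. Peroxidases of the Gpx family use it to reduce hydrogen peroxide and lipid peroxides, and transferases join it to reactive compounds or, for the omega class that includes Gsto1, carry out thiol exchange reactions. Gpx1 works in the cytosol, Gpx4 reduces peroxides within membranes and guards against ferroptosis, and Gpx3 is secreted into extracellular fluid.

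The coding sequences of the 3 metallothioneins show how alike these transcripts are, which bears on whether their reads could be told apart. Each is read from the principal GENCODE M21 transcript, 5′ to 3′, with codons for cysteine in capitals.
Mt1: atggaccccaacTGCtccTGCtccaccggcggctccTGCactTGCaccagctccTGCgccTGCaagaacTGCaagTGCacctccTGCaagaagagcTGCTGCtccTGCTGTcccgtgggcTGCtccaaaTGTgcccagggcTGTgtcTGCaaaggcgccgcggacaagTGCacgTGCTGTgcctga
Mt2: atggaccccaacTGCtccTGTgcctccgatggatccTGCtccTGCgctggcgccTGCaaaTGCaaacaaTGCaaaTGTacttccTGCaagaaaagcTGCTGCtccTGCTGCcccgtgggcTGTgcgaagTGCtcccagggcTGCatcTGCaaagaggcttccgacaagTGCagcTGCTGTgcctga
Mt3: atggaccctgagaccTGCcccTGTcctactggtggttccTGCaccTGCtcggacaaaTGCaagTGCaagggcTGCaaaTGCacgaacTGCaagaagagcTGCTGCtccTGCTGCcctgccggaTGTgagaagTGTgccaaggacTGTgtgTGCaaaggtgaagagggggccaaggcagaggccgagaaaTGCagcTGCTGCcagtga
Mt1 and Mt2 have 61 codons before the stop and Mt3 has 68, and each holds 20 cysteine codons. The coding sequences of Mt1 and Mt2 were 79.6% identical, those of Mt1 and Mt3 66.2%, and those of Mt2 and Mt3 67.6%, with gaps counted as differences. Over whole transcripts the longest run that Mt1 and Mt2 share exactly was 20 bases, as it was for Mt2 and Mt3, and that of Mt1 and Mt3 was 27 bases. Over the last 200 bases, the end from which poly(A)-primed libraries such as these are read, it was 12 bases for Mt1 and Mt2, 10 for Mt1 and Mt3 and 11 for Mt2 and Mt3.

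The 3 peroxidases share another feature of sequence, an in-frame TGA codon that is read as selenocysteine, the catalytic residue. It is shown in capitals with 15 bases on either side.
Gpx1: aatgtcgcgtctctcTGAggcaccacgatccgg
Gpx3: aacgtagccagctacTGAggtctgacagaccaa
Gpx4: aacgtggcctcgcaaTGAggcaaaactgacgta
The TGA stands at codon 47 of Gpx1, codon 73 of Gpx3 and codon 73 of Gpx4 in the transcripts used. Gpx8, a relative outside the 8 genes, had 0 in-frame TGA codons.

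The metallothionein genes lie side by side on mouse chromosome 8, within 43.1 kb of GRCm38 when Mt4, which no table lists, is included. Mt3 spans chr8:94152607-94154146, Mt2 chr8:94172664-94173568 and Mt1 chr8:94179082-94180327, all protein-coding on the plus strand. The bases ahead of their annotated starts are given because Mt1 and Mt2 had like patterns over the pools. They are RefSeq windows of GRCm38.p6 on the plus strand, cut to bases that precede the start in both RefSeq and GENCODE. Capitals mark the core of the metal response element bound by MTF1, searched on both strands as TGCACNC and TGCGCNC, which cannot both match at the same position of a strand.
Mt1, chr8:94178839-94179081: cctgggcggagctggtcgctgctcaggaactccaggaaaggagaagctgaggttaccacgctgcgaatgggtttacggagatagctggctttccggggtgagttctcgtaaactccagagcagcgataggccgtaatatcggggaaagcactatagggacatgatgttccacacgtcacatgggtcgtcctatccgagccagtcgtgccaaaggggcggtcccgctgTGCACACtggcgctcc
Mt2, chr8:94172368-94172617: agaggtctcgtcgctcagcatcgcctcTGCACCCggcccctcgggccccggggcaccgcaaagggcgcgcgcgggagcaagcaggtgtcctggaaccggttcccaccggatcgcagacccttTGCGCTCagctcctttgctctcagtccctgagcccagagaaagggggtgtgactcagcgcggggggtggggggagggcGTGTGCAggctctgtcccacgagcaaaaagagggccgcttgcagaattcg
Mt3, chr8:94152357-94152606: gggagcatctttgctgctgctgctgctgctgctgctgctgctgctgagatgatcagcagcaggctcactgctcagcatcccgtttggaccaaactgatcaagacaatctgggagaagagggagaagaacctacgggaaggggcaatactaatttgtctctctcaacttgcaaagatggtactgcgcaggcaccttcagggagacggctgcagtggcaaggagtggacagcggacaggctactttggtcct
The motif occurred 3 times ahead of Mt2, 1 time ahead of Mt1 and 0 times ahead of Mt3. The Mt1 window is 243 bases long after trimming. Of 32851 mouse windows of 250 bases, 21.4% held at least 1 match and 1.26% held 3 or more. Among the other members, the overlapping windows of 2 annotated Gstm1 starts held 1 and the same match, and the windows of Gsto1, Gpx1, Gpx3 and Gpx4 held 0. These windows end at the annotated start, so their counts alone do not rank the metallothionein genes. For Mt2 that is the RefSeq start, and the bases from there to the GENCODE start were not searched. In each metallothionein transcript a TATAAA stands further in, at base 129 of Mt1, 90 of Mt2 and 107 of Mt3, and ahead of it the motif matched another 4, 3 and 3 times. A match is a run of letters and not evidence of binding.

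Depth differed between pools. Listed genes summed to 1428541 UMIs (unique molecules) in WT epithelium, 1552958 in KO epithelium, 416747 in WT stroma and 947663 in KO stroma. These sums cover 5821, 5823, 1782 and 2752 listed genes in the same order, so they are not sums over the same genes. On the scale of the size factors the pools had 1, 1.08, 0.393 and 0.791 times the depth of WT epithelium. Levels below are UMIs divided by that factor, and counts are the UMIs themselves. Compartment names matched the defining markers. Epcam and Krt8 had levels of 664 and 924 in WT epithelium against 114 and 112 in WT stroma, and Dcn had 13053 in WT stroma against 2986 in WT epithelium. Neither compartment was free of the markers of the other, and the stroma pools differed from each other. The summed level of 10 simple epithelium markers was 7.56-fold higher in epithelium than in stroma in WT and 2.86-fold higher in KO. Of the stroma pools, KO had the higher sum, by 2.22-fold.

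Mt1 and Mt2 were epithelial transcripts with their highest level in WT epithelium. Mt1 had 1985 UMIs in WT epithelium, 1162 in KO epithelium, 170 in WT stroma and 315 in KO stroma, which are levels of 1985, 1072, 432 and 398. Mt2 had 1271, 656, 78 and 149 UMIs in the same order, at levels of 1271, 605, 198 and 188. For both genes WT epithelium stood above KO epithelium and KO epithelium above either stroma pool, and the counting intervals of the stroma pools overlapped. In pools of tissue, fewer cells that express a gene and less RNA per cell cannot be told apart.

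**Figure D1:**
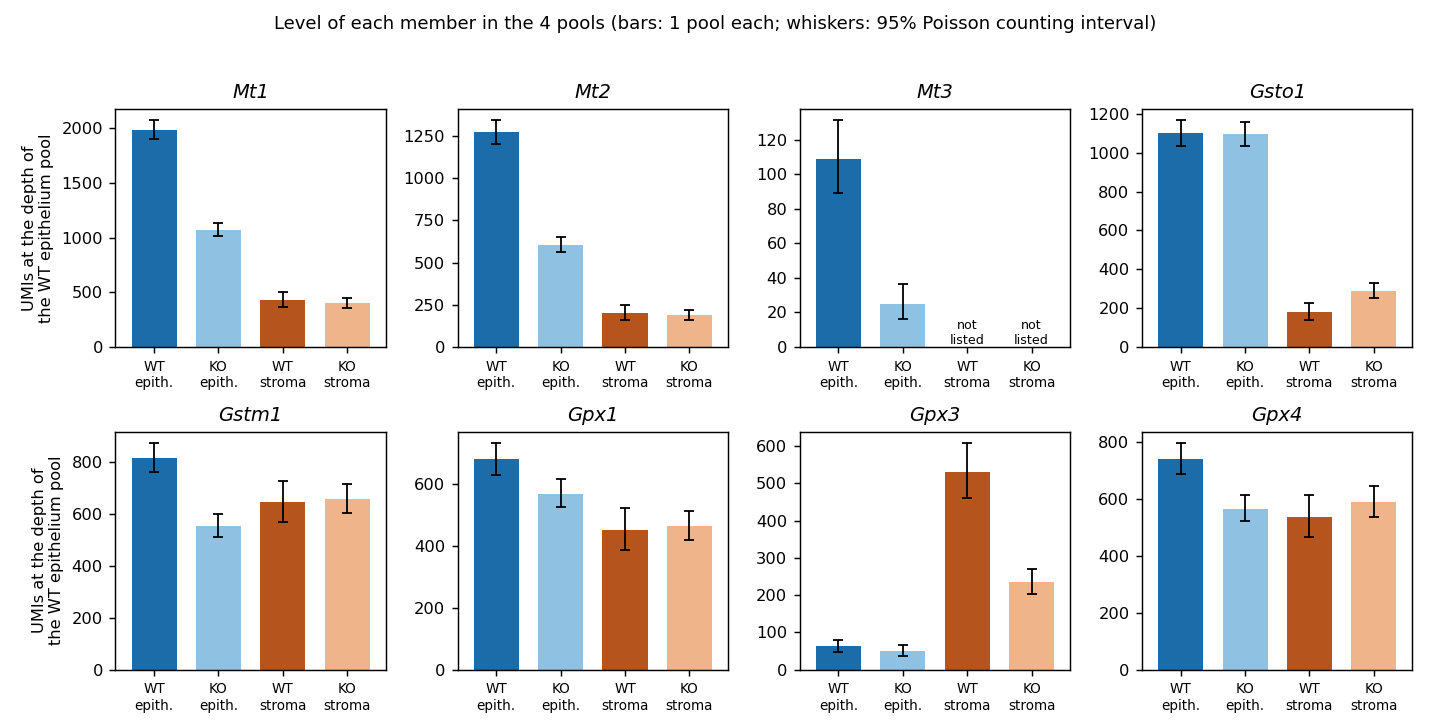
Level of each gene in the 4 pools, as UMIs divided by the pool's depth relative to WT epithelium (vertical axes start at 0 and differ between panels). Bars are single pools and whiskers are 95% exact Poisson counting intervals; Mt1, Mt2 and Gsto1 stood highest in epithelium, Gpx3 in WT stroma, and Mt3 has no bar in stroma because the stroma tables do not list it.

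Between compartments of WT uterus Mt1 was 4.59-fold higher in epithelium (95% counting interval 3.93 to 5.40) and Mt2 6.41-fold higher (5.10 to 8.16). In KO uterus the same contrasts were 2.69-fold (2.38 to 3.06) for Mt1 and 3.22-fold (2.69 to 3.87) for Mt2. The authors' deposited tables give adjusted p-values of 8.78e-08 for Mt1 and 2.3e-08 for Mt2 in WT, and of 0.000101 for Mt1 and 2.36e-05 for Mt2 in KO. Among all listed genes, 13.1% were called higher in epithelium in WT and 5.43% in KO, a call here being an authors' adjusted p under 0.05. By size of the contrast Mt2 ranked 36 of 1769 genes in WT and 24 of 2744 in KO, and Mt1 ranked 78 and 56.

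Between genotypes the pair had lower values in KO epithelium, beyond counting error but not called, and like values in both stroma pools. Mt1 was 1.85-fold lower in KO epithelium than in WT epithelium (1.72 to 1.99) and Mt2 2.10-fold lower (1.91 to 2.31). Neither was called, since the authors' deposited table gives adjusted p-values of 0.637 for Mt1 and 0.384 for Mt2. In stroma Mt1 had a KO over WT ratio of 0.921 (0.762 to 1.12), where the authors' deposited table has an adjusted p of 1. Mt2 is not listed in that table, and sums taken from the others gave 0.949 (0.717 to 1.27). Whether the genotype difference itself differed between compartments was not tested, as there is 1 pool each.

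The make-up of the pair shifted little. Mt2 supplied 39.0% of the joint Mt1 and Mt2 UMIs in WT epithelium (95% exact Clopper-Pearson interval 37.4 to 40.7, of 3256 UMIs) and 36.1% in KO epithelium (33.9 to 38.3, of 1818). In stroma its share was 31.5% in WT (25.7 to 37.6, of 248) and 32.1% in KO (27.9 to 36.6, of 464). Thus the share was higher in WT epithelium than in KO stroma beyond counting error, and the 2 stroma intervals overlapped almost fully.

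Mt3 was the 1 gene of the 8 that the authors' table calls between genotypes. It had 109 UMIs in WT epithelium and 27 in KO epithelium, and was 4.38-fold lower in KO (2.85 to 6.94). The authors' deposited adjusted p is 0.0102, and 0.0516% of the 5811 listed genes were called lower in KO and 0.0688% higher. Its log2 ratio was the 4th lowest of that table. Mt3 was listed there through WT epithelium alone, where its deposited average was 1.92 against 0.438 in KO, so a gene at its KO level in both pools would not have been seen. It is not listed in the other comparisons, and its stromal level was not analysed here.

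The fold differences of the metallothioneins between the epithelial pools exceeded that of the summed epithelial markers. The summed level of the 10 epithelial markers was 1.19-fold lower in KO epithelium than in WT epithelium, that of 10 endometrial stroma markers was 1.36-fold higher, that of 2 hemoglobin genes 1.77-fold higher, and that of 5 smooth muscle markers 1.54-fold lower. The part of such shifts in the metallothionein values was not tested. Around the cluster, 14 other protein-coding genes lie within 500 kb on either side and 7 of them were listed. Their log2 ratios of KO over WT epithelium ran from -0.83 (Bbs2) to 0.11 (Nudt21), with a median of -0.12 against -0.10 over all listed genes, and 0 were called.

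**Figure D2:**
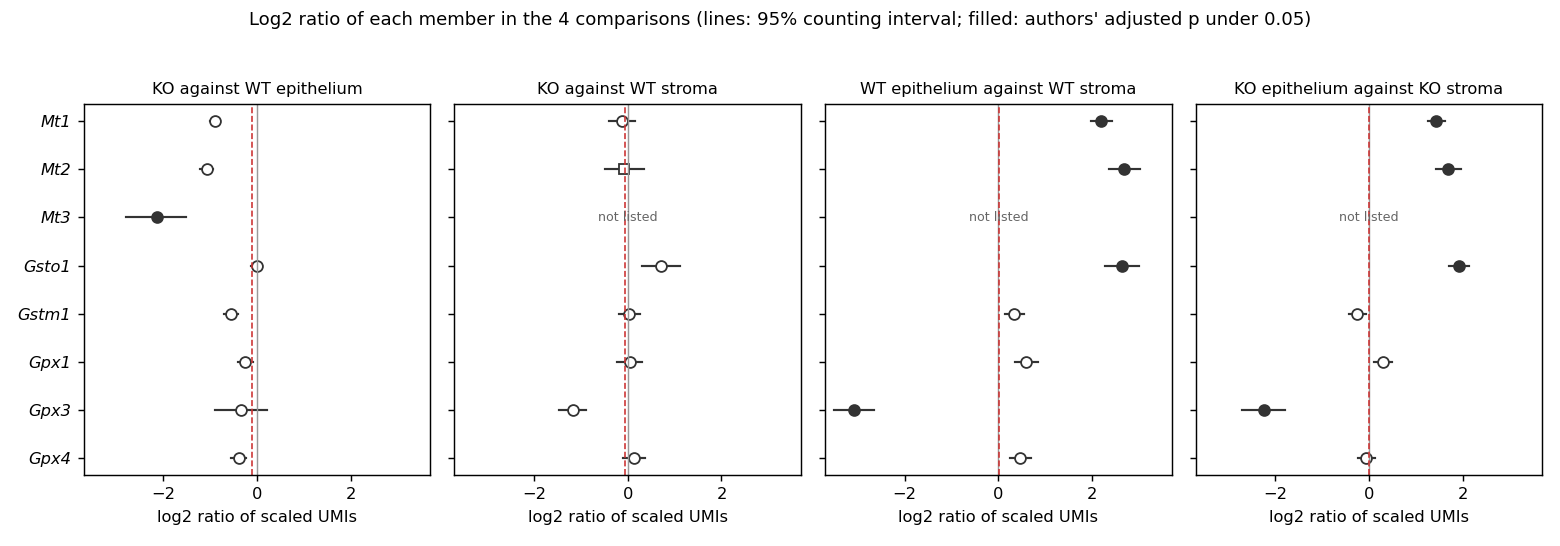
Log2 ratio of depth-scaled UMIs for each gene (horizontal axes) in the 4 comparisons. Each point is a ratio between pools, lines are 95% counting intervals and filled points have an authors' adjusted p under 0.05. The square is a ratio that the table itself does not list and the red dashed line is the median of all listed genes. Mt3 is the filled point in the first panel and the second panel has none.

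Gsto1 was as epithelial as Mt2 but did not follow it between genotypes. The gene, at chr19:47854970-47864790 on the plus strand, had 1101 UMIs in WT epithelium, 1187 in KO epithelium, 70 in WT stroma and 229 in KO stroma, or levels of 1101, 1095, 178 and 289. The epithelial pools were level with each other and both lay far above the stroma pools. Gsto1 was 6.19-fold higher in epithelium in WT (4.86 to 7.996) and 3.79-fold higher in KO (3.28 to 4.38), and the authors' deposited adjusted p-values are 1.3e-10 and 2.63e-07. In KO it had the 14th highest epithelial contrast of 2744 genes.

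The KO over WT ratio of Gsto1 was 0.995 in epithelium (0.916 to 1.08). In stroma it was 1.63 (1.24 to 2.16), and the authors' deposited adjusted p is 0.873. This stromal value moved with the epithelial markers, whose summed level stood 2.22-fold higher in KO stroma, and their part in it was not tested. Gsto1 also entered the stroma comparison through KO stroma alone (deposited averages of 1.34 in KO and 0.826 in WT).

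Gstm1, a mu-class transferase at chr3:108012255-108017973 on the minus strand, was called in neither compartment. Its counts were 814 in WT epithelium, 600 in KO epithelium, 253 in WT stroma and 520 in KO stroma, at levels of 814, 554, 643 and 657. The intervals of the stroma pools overlapped, and KO epithelium had the lowest value, within counting error of WT stroma. The epithelium over stroma ratio was 1.27 in WT (1.10 to 1.46), while in KO stroma was 1.19-fold higher (1.05 to 1.34), and the authors' deposited adjusted p-values are 0.569 and 0.924. In epithelium Gstm1 was 1.47-fold lower in KO (1.32 to 1.64), and the authors' deposited table gives an adjusted p of 1. Mu-class genes are close copies in 1 cluster and how reads matching several of them were counted is not given in the sources used here, so values of single Gstm genes are uncertain.

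Other transferases showed both patterns. Of 26 genes on the transferase list, 11 were listed in some table. In WT, epithelium had the higher call for 4 of 7 listed genes and stroma for 1, where 13.1% and 15.7% of all listed genes were so called. Gstm7 was 4.81-fold higher in epithelium (318 against 26 UMIs, adjusted p = 1.85e-06 in the authors' deposited table), the alpha-class gene Gsta4 3.75-fold (334 against 35, 6.42e-07) and Gstm2 3.58-fold (583 against 64, 1.24e-07). The theta-class gene Gstt1 went the other way and was 2.77-fold higher in stroma (72 against 66 UMIs, adjusted p = 9.78e-05 in the authors' deposited table). Gstm7, Gsta4 and Gstm2 entered this table through WT epithelium alone and Gstt1 through WT stroma alone, so the listing itself favoured their sides. In KO, 8 were listed, with calls for Gsto1 and Gsta4 (2.44-fold) on the epithelial side and Gstt1 (2.26-fold) on the stromal side. Of all listed genes, 5.43% and 4.45% were so called, and Gstt1 was again listed through stroma alone. Gstm2 was 1.85-fold lower in KO epithelium (1.61 to 2.12), the same fold as Mt1, but 1.61-fold higher in KO stroma (1.21 to 2.16). Its adjusted p-values in the authors' deposited tables are 0.466 and 0.889, and this remark was chosen after its values were seen. Gstm2 entered the stroma comparison through KO stroma alone (deposited averages of 1.21 in KO and 0.755 in WT). The listing itself thus favoured that side. The summed epithelial markers stood 2.22-fold higher in KO stroma, and their part in the stromal Gstm2 value was not tested.

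Gpx3 was the stromal gene of the set. At chr11:54902453-54910377 on the plus strand, it had 63 UMIs in WT epithelium, 54 in KO epithelium, 209 in WT stroma and 186 in KO stroma. The levels were 63, 49.8, 531 and 235. WT stroma stood highest, KO stroma next, and the intervals of both epithelial pools overlapped far below. Gpx3 was 8.43-fold higher in stroma in WT (6.33 to 11.4) and 4.72-fold higher in KO (3.47 to 6.51), and the authors' deposited adjusted p-values are 9.94e-16 and 1.54e-06. It ranked 9 of 1769 genes by stromal contrast in WT and 5 of 2744 in KO, where 15.7% and 4.45% of all genes were called higher in stroma. In both tables its deposited average was above 1 in stroma alone.

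Gpx3 was 2.26-fold lower in stroma of KO uterus (1.85 to 2.77), the 14th lowest ratio of 1191 genes. It was not called, the authors' deposited adjusted p being 0.0729, and 0.756% of genes were called lower in KO stroma. Smooth muscle, red cell and epithelial transcripts moved in the same comparison. The summed level of 5 smooth muscle markers was 2.09-fold lower in KO stroma, that of 2 hemoglobin genes 2.58-fold lower, and that of 10 endometrial stroma markers 1.18-fold lower. The epithelial markers were higher, as given above. Their part in the Gpx3 value was not tested. In epithelium Gpx3 had a KO over WT ratio of 0.791 (0.540 to 1.16), which counting error spans. It was listed there through WT epithelium alone (deposited averages of 0.876 in KO and 1.11 in WT).

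Gpx1 and Gpx4 were present in all pools and were not called in any comparison. Gpx1 (chr9:108338903-108340343, plus strand) had 681 UMIs in WT epithelium, 618 in KO epithelium, 178 in WT stroma and 368 in KO stroma, at levels of 681, 570, 452 and 465. Gpx4 (chr10:80047166-80056439, plus strand) had 742, 614, 211 and 466 UMIs, at levels of 742, 567, 536 and 589. WT epithelium was the highest pool for both, and the other pools of Gpx4 had overlapping intervals. Epithelium over stroma in WT was 1.51 for Gpx1 (1.27 to 1.79) and 1.38 for Gpx4 (1.19 to 1.62), and in KO 1.23 (1.08 to 1.40) and 0.962 (0.852 to 1.09). The authors' deposited adjusted p-values for these ran from 0.118 to 1. Between genotypes in epithelium Gpx1 was 1.19-fold lower in KO (1.07 to 1.33) and Gpx4 1.31-fold lower (1.18 to 1.46), and in stroma the ratios were 1.03 (0.857 to 1.24) and 1.10 (0.931 to 1.30), and the authors' deposited tables give an adjusted p of 1 for each.

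Thus Gpx3 and the other selenium peroxidases, which share the TGA codon shown above, did not share a compartment. The peroxidase list, which adds peroxiredoxins and catalase, had 8 listed members in the WT compartment table. Prdx5 (2.63-fold, adjusted p = 0.000371 in the authors' deposited table) and Prdx6 (2.61-fold, 0.000148) were called higher in epithelium, and Gpx3 alone was called higher in stroma. Of all listed genes, 13.1% and 15.7% were so called. Prdx5 and Prdx6 were listed through WT epithelium alone and Gpx3 through WT stroma alone, so the listing itself favoured their sides. In KO Prdx5 and Prdx6 had contrasts of 1.56-fold and 1.07-fold and were not called. Gpx8 had 141 UMIs in WT epithelium, 161 in KO epithelium and 101 in KO stroma, with a KO over WT ratio of 1.05 in epithelium (0.835 to 1.33).

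Counted over the set, 4 of 7 listed members were called in each compartment comparison, 3 higher in epithelium and 1 in stroma. The share called among all genes was 28.8% in WT and 9.88% in KO, and no more than that is read from the counts, since the genes were proposed from these values. Between genotypes 1 of 8 was called in epithelium, where 0.12% of all genes were, and 0 of 6 in stroma, where 1.51% were. All 8 had a lower value in KO epithelium (7 of 8 once ratios are centred on the median gene, as Gsto1 then turns positive), as did 64.8% of all listed genes. The median log2 ratio was -0.47 over the 8 and -0.10 over all. Mt3 and Gpx3 entered this epithelial comparison through WT epithelium alone, so the listing itself favoured a lower KO value for them. In stroma KO gave the higher value for 4 of 6 (median log2 ratio 0.04, against -0.05 over all listed genes). Of these, Gsto1 was listed through KO stroma alone.

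For the 7 members listed in both compartment tables (all but Mt3), the contrast was nearer to 0 in KO than in WT. Fold differences between epithelium and stroma went from 4.59 to 2.69 for Mt1, 6.41 to 3.22 for Mt2, 6.19 to 3.79 for Gsto1 and 8.43 to 4.72 for Gpx3. The same held for 78% of the 1737 genes listed in both tables, and for 118 of the 118 genes (100%) with an absolute log2 contrast of at least 2 in WT, a class that includes these 4 members. It held also for the summed epithelial markers (7.56-fold and 2.86-fold). The summed stroma markers were 3.14-fold higher in stroma in WT and 1.96-fold in KO. The 118 genes were picked by their WT contrast, which in itself favours a smaller contrast in KO, so nothing is read from the 100%. For Mt1 and Mt2 the stromal levels of WT and KO overlapped and the epithelial levels did not, whereas for Gsto1 the epithelial levels overlapped and the stromal did not. For Gpx3 it was the stromal levels that did not overlap.

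**Figure D3:**
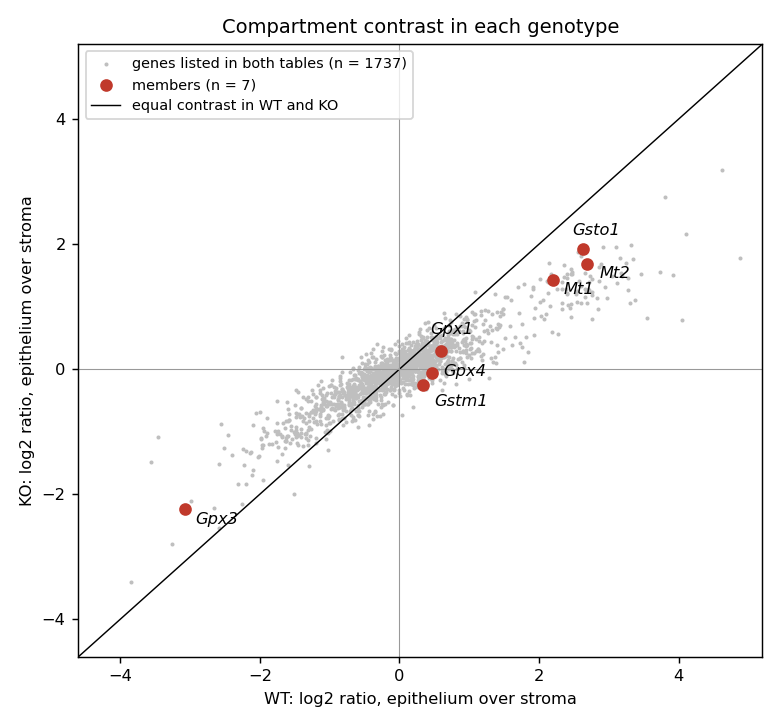
Log2 ratio of epithelium over stroma in WT (horizontal) and in KO (vertical) for 1737 genes listed in both compartment tables, with the 7 listed members in red. The line marks equal contrasts. Mt1, Mt2, Gsto1 and Gpx3 lie on its side towards 0 in KO, as do 78% of all genes. So do 100% of the 118 genes with an absolute log2 contrast of at least 2 in WT. Picking genes by their WT contrast itself favours a smaller contrast in KO.

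Other genes of zinc and glutathione metabolism were read from the same genotype comparison, in which 0.12% of all listed genes were called. In KO against WT epithelium the zinc list had 11 listed genes, of which Mt3 was called. Values were higher in KO for 2 and lower for 9. The median log2 ratio was -0.24, against -0.10 over all listed genes, and the list holds the 3 metallothioneins themselves. Slc39a4, a zinc importer, was 1.59-fold lower (1.34 to 1.89, adjusted p = 1 in the authors' deposited table). Between compartments of WT uterus it was called, 4.21-fold higher in epithelium (the authors' deposited adjusted p was 1.88e-06). Slc39a4 was listed in that comparison through WT epithelium alone, so the listing itself favoured that side. In KO uterus its contrast was 1.74-fold (1.36 to 2.23) and not called, the authors' deposited adjusted p being 0.151. None of 11 transferases, 11 peroxidases, 16 genes of glutathione synthesis and recycling or 16 genes of the thioredoxin system and NRF2 response was called between genotypes in epithelium. Their median log2 ratios were -0.10, -0.17, -0.08 and -0.04, against -0.10 over all listed genes. Among selenium genes 1 of 17 was called, Dio2, the selenoenzyme that activates thyroid hormone, 2.88-fold higher in KO (adjusted p = 0.0158 in the authors' deposited table). Dio2 was called in stroma too, 2.95-fold higher in KO (2.32 to 3.80), where the authors' deposited adjusted p is 0.00449. It entered the stroma comparison through KO stroma alone (deposited averages of 2.72 in KO and 0.921 in WT), so the listing itself favoured that side. The list of glucocorticoid-induced genes had 9 listed genes, with a median of -0.33 and no call. It holds Mt1 and Mt2 themselves, and also Nr3c1, which is the glucocorticoid receptor and not a gene chosen as induced.

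**Figure D4:**
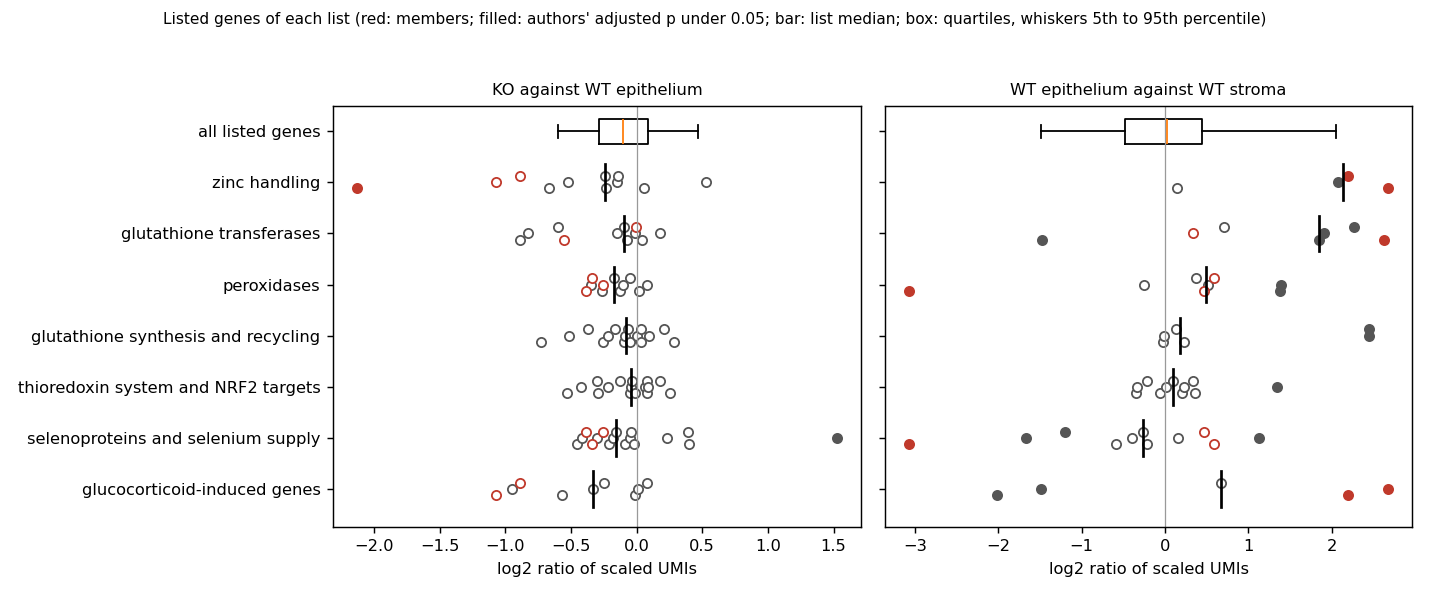
Log2 ratio (horizontal) of each listed gene of the 7 lists, for KO against WT epithelium and for WT epithelium against WT stroma. Red points are members, filled points have an authors' adjusted p under 0.05, black bars are list medians and the box gives all listed genes; in the genotype panel Mt3 and Dio2 are the filled points.

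Between compartments the pathway genes had sides of their own. Slc7a11, the cystine importer that feeds glutathione synthesis, was 5.47-fold higher in WT epithelium (264 against 19 UMIs, adjusted p = 1.37e-08 in the authors' table) and 2.05-fold higher in KO epithelium (0.0178). Anpep, an aminopeptidase that acts on glutathione breakdown products, was 5.45-fold higher in WT epithelium (1.76e-11) and 1.97-fold in KO (0.00842). It was also the 1 called gene of 3 listed in its group between genotypes in stroma, where 1.51% of all listed genes were called. There Anpep was 2.64-fold higher in KO (2.11 to 3.34, adjusted p = 0.038 in the authors' table). In epithelium its KO over WT ratio was 0.956 (0.884 to 1.03) and it was not called. The summed epithelial markers stood 2.22-fold higher in KO stroma, and their part in the stromal Anpep value was not tested. Selenop, which carries selenium between tissues, was the stromal counterpart, 3.19-fold higher there in WT (1.25e-11) and 1.82-fold in KO (0.013). Selenom followed in WT (2.30-fold, 3.35e-05), while Selenoh was higher in epithelium (2.19-fold, 0.00822). Sod2, the mitochondrial superoxide dismutase, was the 1 called gene of 11 in the thioredoxin and NRF2 list, 2.54-fold higher in WT epithelium (0.00245). Of all genes listed in that comparison, 28.8% were called and 13.1% were called higher in epithelium. Nr3c1, the glucocorticoid receptor, and its target Klf9 lay on the stromal side in WT, at 2.80-fold (8.64e-06) and 4.06-fold (5.87e-11). Mt1 and Mt2 lay on the other side, and any part of glucocorticoids in their values was not tested. Tsc22d3, a glucocorticoid-induced gene of the same list named here after its values were seen, was not called and had a WT epithelium over stroma ratio of 1.59 (1.28 to 1.99). Slc7a11, Selenoh and Sod2 entered the WT comparison through epithelium alone and Nr3c1 through stroma alone, so the listing itself favoured their sides. All p-values of this paragraph are adjusted and come from the authors' deposited tables.

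Genes whose levels over the 4 pools ran most like each member were sought among 1754 others with sums in all pools, by distance in centred log2 level. With 4 pools this describes the pattern only. Ltf, which encodes lactoferrin and is known as an estrogen-responsive gene of mouse uterine epithelium, was nearest to Mt2 (distance 0.10), followed by Cndp2 and Mt1, and Mt1 was closest to Cd14 (0.12), Sec23b and Ltf. Gsto1 was nearest to Emb (0.28), Cldn7 and Tfcp2l1. Gpx3 was nearest to the chemokine gene Cxcl12 (0.12), then Malat1 and Smoc2. Gpx1 had Ppp2r1a, Atp5j and St13, Gpx4 had Copg1, Por and Mdh2, and Gstm1 had Ddb1, Usp19 and Mrpl14, the farthest of them at 0.12. Ltf had levels of 425 in WT epithelium, 214 in KO epithelium, 66.1 in WT stroma and 68.2 in KO stroma.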

How the data were processed

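Visium libraries came from 10 µm uterine cryosections of 4 KO and 4 WT mice, per the labels. The submitters' processing notes name GRCm38. How reads were aligned, how spots were named and which test gave the p-values is not given in the sources used here. Each of 4 tables holds, per the file headers, the average of both pools, their log2 fold changes and an adjusted p-value. Every gene in a table has a deposited average above 1 in at least 1 pool.

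The averages behave as UMI counts scaled by size factors within a table. Pooled UMI sums were solved by least squares from deposited averages and log2 fold changes, and all (100%) came out whole to within 0.01, with 0 clashes between tables. The step was tested on simulated data. Folds are ratios of these sums scaled by size factor, with exact Clopper-Pearson 95% intervals. With 1 pool a group, no count model was fitted. Members and the 7 gene lists were chosen with earlier results of these data known. Named were all members, called genes of the lists (at most 4 per direction) and the 3 genes nearest to a member in pattern with at least 100 UMIs. GENCODE M21 held 5826 of 5828 IDs and gave positions. RefSeq promoter windows matched all 8 members by symbol. Mt2 and Gsto1 each overlap 1 gene on the other strand, and whether counting used strand is not stated. Python 3.11.15, NumPy 2.4.6, SciPy 1.17.1, pandas 2.3.3 and Biopython 1.88 were used. Alternatives were an adjusted p under 0.01, an absolute log2 fold of at least 1, omission of the lowest 25% of genes, the deposited log2 folds, a pseudocount of 0.1 and centring on the median gene.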

Additional observations from a re-analysis of the deposited data

How the results depend on the processing

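The count of members called between genotypes in epithelium, 1 as reported, became 0 at an adjusted p under 0.01 and 0 without the lowest 25% of genes by level, because Mt3 has a deposited adjusted p of 0.0102 and lies among those genes. The other 8 member calls, all between compartments, held under both of these and with an absolute log2 fold of at least 1. The 29 log2 ratios of members stayed inside their counting intervals with the authors' log2 folds (28 available), centring or a pseudocount of 0.1, and 1 uncalled ratio, Gsto1 in epithelium, changed sign on centring. The sums were solved from the deposited averages and log2 folds, so values recomputed from those, Mt2 shares included, are no independent check. No paired analysis was possible because animals of 1 genotype share a single pooled value, so no replicate could be left out either. Depth limits Mt3 and Gpx3 in epithelium most, at 27 and 54 UMIs in KO.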
